A study of Mus musculus with 6 samples.

Results

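The genes described here are the transcription factor genes Foxo1, Foxo3 and Foxo4 and 7 genes known as their targets in fasting and growth restraint: Pdk4, Depp1, Irs2, Ddit4, Trp53inp1, Sesn1 and Txnip. They are 10 of the 18824 genes in the deposited table. The 10 were selected on their symbols, as known FOXO genes, and also on measured differences between the groups compared below, so their differences between these groups are given as a description and carry no test.

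RNA-seq was performed on skin of C57BL/6j mice of the MC903 model, where topical application of a vitamin D analogue causes inflammation resembling atopic dermatitis. There were 6 libraries in 2 groups of 3, called CCR3 and VEH (vehicle) after their titles, with replicates 1, 2 and 4 in each group. The labels conflict on the agent of the CCR3 group: the series title has SB328437, which blocks the chemokine receptor CCR3, and the sample labels have SC144, an inhibitor of the gp130 receptor subunit. Which of them was given could not be settled, and no dose, time, sex or age is stated. Both groups share the MC903 model per the series title, and skin without MC903 was not analysed here. The labels do not tie replicates to different animals, so p-values speak of the spread among these libraries, which may be technical.

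FOXO factors are forkhead proteins that carry out the cell's answer to low insulin or growth factor signalling. When the kinase AKT is active it phosphorylates them and they leave the nucleus, and when it is not they switch on genes that spare glucose, slow growth, start autophagy and counter oxidants. Their activity is therefore set largely on the protein, which transcript levels do not show. Several of their targets, Pdk4 and Ddit4 among them, also answer to glucocorticoids, to nutrient sensors or, for Sesn1 and Trp53inp1, to p53.

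The promoters of the target genes are shown first, because the targets with the widest differences are the ones whose shared control a reader would look for. RefSeq windows of 250 bases before the start of transcription (build GRCm38.p6) were found for 8 of the 10 members, with 2 windows for Sesn1. The 4 below belong to the targets Pdk4 and Depp1, which differed most between the groups, and to Txnip and Irs2, which hold matches to the motifs searched. Capitals mark those matches, and each sequence runs 5′ to 3′ on its gene's strand. The windows lie at chr6:5496279-5496528 on the minus strand for Pdk4, chr6:116650434-116650683 on the plus strand for Depp1, chr3:96557707-96557956 on the plus strand for Txnip and chr8:11008930-11009179 on the minus strand for Irs2.
Pdk4: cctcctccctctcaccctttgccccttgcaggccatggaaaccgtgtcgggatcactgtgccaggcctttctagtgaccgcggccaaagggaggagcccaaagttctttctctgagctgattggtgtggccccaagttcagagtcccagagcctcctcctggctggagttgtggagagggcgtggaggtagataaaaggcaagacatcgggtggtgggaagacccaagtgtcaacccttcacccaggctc
Depp1: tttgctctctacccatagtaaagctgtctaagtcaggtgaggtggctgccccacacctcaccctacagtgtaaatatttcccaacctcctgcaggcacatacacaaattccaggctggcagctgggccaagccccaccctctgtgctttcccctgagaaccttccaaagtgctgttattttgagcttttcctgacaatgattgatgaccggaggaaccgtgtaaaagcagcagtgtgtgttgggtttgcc
Txnip: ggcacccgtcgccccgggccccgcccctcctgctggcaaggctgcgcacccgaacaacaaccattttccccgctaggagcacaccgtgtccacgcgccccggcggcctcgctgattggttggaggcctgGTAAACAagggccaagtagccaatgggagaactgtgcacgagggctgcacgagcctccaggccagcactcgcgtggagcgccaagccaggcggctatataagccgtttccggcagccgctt
Irs2: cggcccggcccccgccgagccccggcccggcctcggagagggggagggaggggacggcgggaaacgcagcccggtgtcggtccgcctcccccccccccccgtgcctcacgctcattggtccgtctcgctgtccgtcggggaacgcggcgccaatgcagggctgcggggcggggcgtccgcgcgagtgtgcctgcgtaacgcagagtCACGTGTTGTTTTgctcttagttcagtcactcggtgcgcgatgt

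The FOXO consensus TGTTTAC, read on both strands, was present in the window of Txnip alone among the members. There it lay 121 bases before the start, on the opposite strand, so it reads GTAAACA in the sequence shown. Of all 32851 promoter windows of that length, 3.17% held it. The insulin-response core TTGTTTT was found in Irs2, 38 bases before the start, and in 1 of the windows of Sesn1, 169 bases before it, against 8.11% of all windows. The E-box CACGTG, which reads the same on both strands, stood next to the core in Irs2 without overlapping it, 44 bases before the start, and 6.02% of all windows held one. The glucocorticoid response motif TGTTCT was in none of the 9 member windows, against 16.1% of all. These are matches of letters in a short window, not shown to be bound, and a window without a match says nothing about a factor acting elsewhere at the gene.

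Expression values were FPKM (fragments divided by transcript length and by the mapped total), whose depth is unknown because the table holds no counts. FPKM summed to between 517764 and 553305 per library, and 12919 to 13054 genes reached 1 FPKM in each. Skin markers were present in every library, with Krt14, the keratin of basal keratinocytes, at 4157 to 5478 FPKM and Col1a1, the collagen of fibroblasts, at 275.6 to 457.9 FPKM. The 13063 genes that reached 1 FPKM in 3 or more libraries were tested with limma on log2(FPKM + 1), and a gene counts as called when its Benjamini-Hochberg adjusted p over all of them was under 0.05. Of these, 178 were called higher in CCR3 (1.36%) and 310 lower (2.37%), and the calls split 230 to 261 with median-centred values and 158 to 173 with libraries brought to an equal sum. The total of 488 calls was 149 without CCR3 replicate 1, 1641 without CCR3 replicate 4, and 75, 120 and 74 without VEH replicates 1, 2 and 4. All 10 members passed the filter on low values.

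Transcripts of 2 of the 3 FOXO genes stood higher in CCR3 skin, while the groups overlapped for Foxo4. Foxo1, which restrains growth and drives the fasting response in liver and muscle, was at 8.64, 9.05 and 10.84 FPKM in CCR3 replicates 1, 2 and 4 and at 5.96, 5.53 and 5.34 FPKM in the VEH libraries in the same order. The groups did not overlap, and the mean was 1.70 times that of VEH (9.51 ± 1.17 against 5.61 ± 0.318 FPKM, SD, n = 3 each), a difference of 0.66 ± 0.092 (SE) on the log2(FPKM + 1) scale. Foxo3, known for cell death and for keeping stem cells quiescent, was at 14.27, 14.72 and 17.05 FPKM in CCR3 and at 10.58, 10.79 and 10.45 FPKM in VEH. Its VEH libraries lay close together (coefficient of variation 1.62%) and all CCR3 libraries were above them, with a log2 difference of 0.49 ± 0.078 (SE). Foxo4, the X-linked family member, was at 10.12, 12.21 and 10.79 FPKM in CCR3 and at 11.65, 10.53 and 11.43 FPKM in VEH. Both its highest and its lowest value were in CCR3, so the VEH range lay inside that of CCR3 (log2 difference -0.02 ± 0.082 SE, turning positive under both other scalings).

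**Figure D1:**
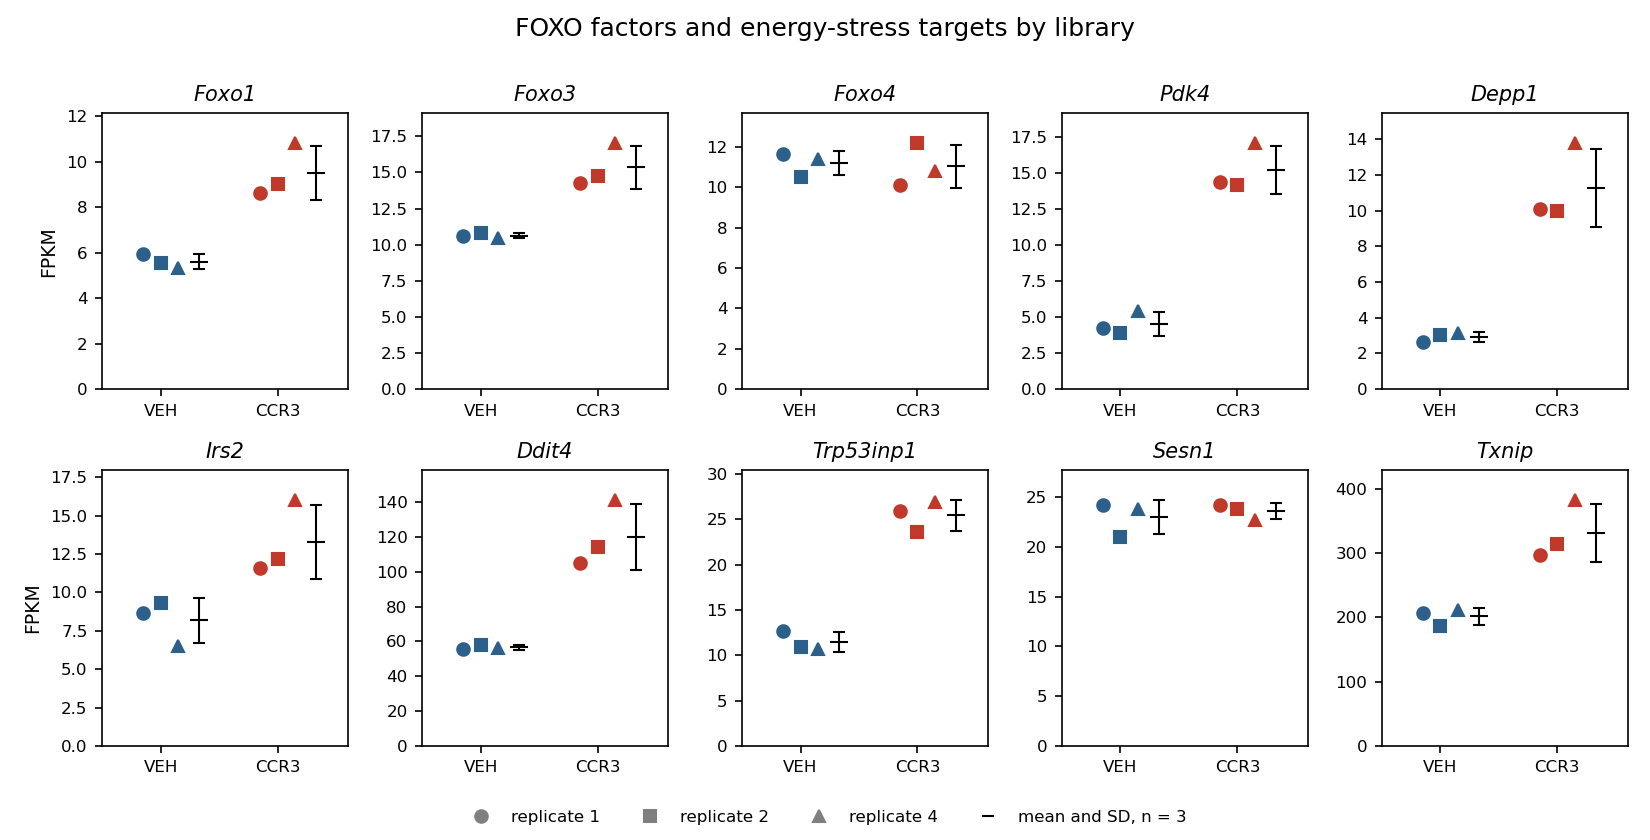
FPKM (vertical axis, each panel from 0) of the 10 genes in the VEH (blue) and CCR3 (red) libraries; marker shapes give the replicate number and the black marks the mean and SD of 3 libraries. In 8 panels every CCR3 library lies above every VEH library, and in those of Foxo4 and Sesn1 the groups overlap.

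The makeup of the FOXO transcripts follows from the levels above and from Foxo6, and is given as a description. Foxo4 itself overlapped between the groups, so its smaller share in CCR3 reflects the higher levels of the other genes. Foxo6, the fourth family gene and best known from brain, was low and not among the members, at 2.12, 2.32 and 2.25 FPKM in CCR3 and at 1.34, 1.37 and 1.32 FPKM in VEH. It was called higher (log2 fold change 0.46 ± 0.075 SE, limma adjusted p = 0.0190). It missed the threshold with a replicate block and when CCR3 replicate 1 or any 1 VEH library was left out (limma adjusted p up to 0.0941). The summed FPKM of the 4 genes was 35.15, 38.30 and 40.93 in CCR3 and 29.53, 28.22 and 28.54 in VEH. Foxo4 made up 38.9% ± 1.44 of that sum in VEH and 29.0% ± 2.77 in CCR3 (SD, n = 3 each), while the share of Foxo1 was 19.5% ± 0.741 and 24.9% ± 1.45. Foxo3 and Foxo4 were about level in VEH, where Foxo4 was the higher of the pair in replicates 1 and 4, and Foxo3 was the higher in every CCR3 library.

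**Figure D2:**
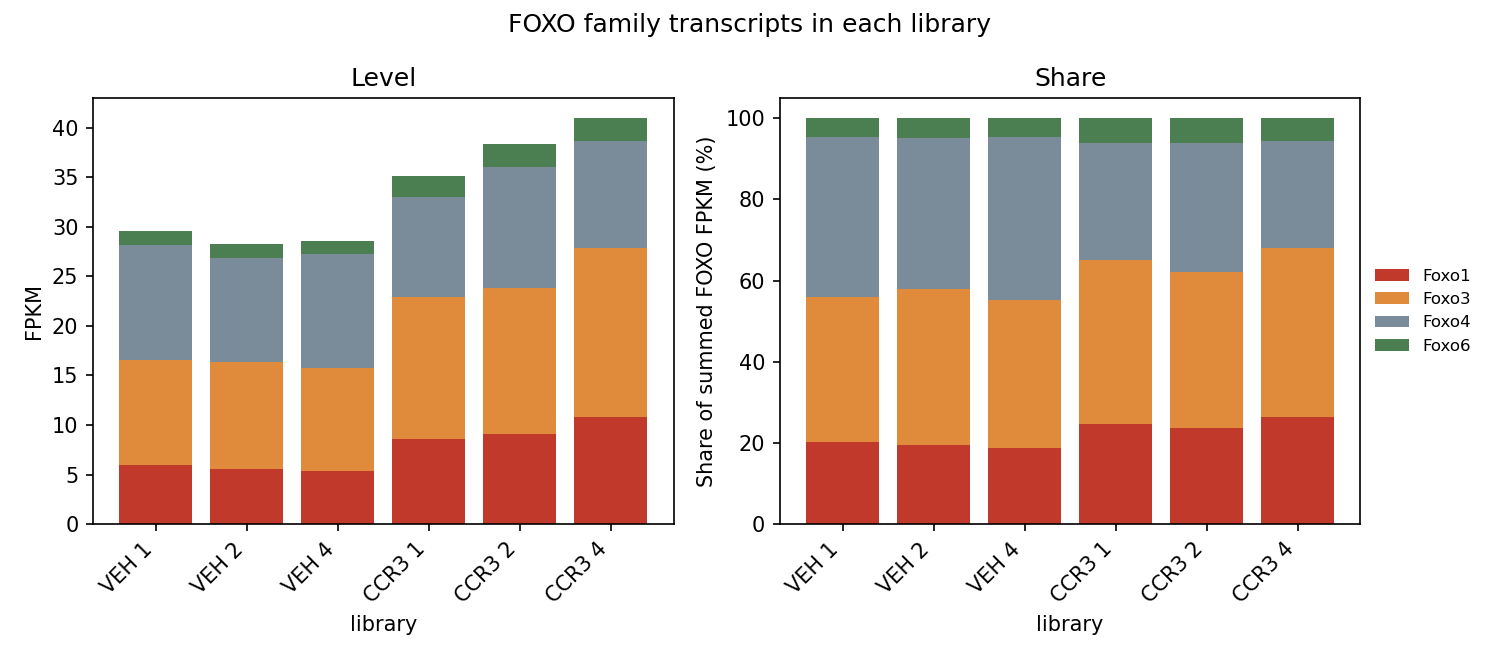
Stacked bars of the 4 FOXO genes in each library, as FPKM (left) and as a share of their summed FPKM in percent (right). The bars are taller in CCR3 (35.15 to 40.93 FPKM) than in VEH (28.22 to 29.53 FPKM), and the Foxo4 share is smaller.

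The widest differences among the 10 were those of Pdk4 and Depp1, which are given here together with Irs2, whose difference was narrower. Pdk4, the kinase that shuts pyruvate dehydrogenase so that fat is burned in place of glucose, was at 14.38, 14.15 and 17.09 FPKM in CCR3 and at 4.23, 3.86 and 5.42 FPKM in VEH. Its mean was 3.38 times that of VEH, with a gap of 8.73 FPKM between the lowest CCR3 and the highest VEH library. Depp1, a gene induced by FOXO that is linked to autophagy and handling of oxidants, was at 10.08, 9.96 and 13.80 FPKM against 2.62, 3.02 and 3.14 FPKM. This was 3.85 times the VEH mean and the widest of the 10, with log2 differences of 1.63 ± 0.125 (SE) for Depp1 and 1.56 ± 0.118 (SE) for Pdk4. Among all tested genes they ranked 10 and 13 by rise on that scale. Irs2, the docking protein that carries the signal of the insulin receptor and that FOXO factors switch on in mouse liver during fasting, was at 11.60, 12.17 and 16.04 FPKM in CCR3 and at 8.67, 9.33 and 6.52 FPKM in VEH. Its groups did not overlap, but it varied most within VEH together with Pdk4 (coefficients of variation 18.0% and 18.1%), VEH replicate 4 being low (log2 difference 0.64 ± 0.149 SE).

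Of the targets that restrain growth, Ddit4 and Trp53inp1 were over 2 times the VEH mean, and the groups overlapped for Sesn1. Ddit4, which blocks the growth kinase complex mTORC1 under energy stress and hypoxia, was at 104.9, 114.1 and 141.3 FPKM in CCR3 and at 55.74, 58.05 and 55.92 FPKM in VEH. The VEH libraries lay close together (coefficient of variation 2.27%), and the lowest CCR3 library was 46.88 FPKM above them, with a log2 difference of 1.06 ± 0.106 (SE). Trp53inp1, a stress protein that takes part in autophagy and in p53 responses, was at 25.93, 23.56 and 26.89 FPKM against 12.69, 10.89 and 10.69 FPKM, 2.23 times the VEH mean. Sesn1, a sestrin that holds back mTORC1 when leucine or growth signals are short, was at 24.23, 23.87 and 22.67 FPKM in CCR3 and at 24.18, 21.05 and 23.87 FPKM in VEH. Its means were 23.6 ± 0.817 and 23.0 ± 1.72 FPKM (SD, n = 3 each) and its groups overlapped. Txnip, the arrestin-like protein that limits glucose uptake and binds thioredoxin, was the most abundant of the 10, at 296.5, 313.5 and 382.9 FPKM in CCR3 and at 205.9, 186.3 and 211.7 FPKM in VEH. Its groups were 84.79 FPKM apart at their nearest libraries, with a mean of 1.64 times that of VEH.

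Counted together, 8 of the 10 members had every CCR3 library above every VEH library, as did 10.4% of all tested genes, while 18.3% of tested genes had every CCR3 library below. The same count of 8 was found with both other scalings. By limma 7 members were among the genes called higher, against the 1.36% of all tested genes, and Irs2, Foxo4 and Sesn1 were not called. Without VEH replicate 1, VEH replicate 2 or VEH replicate 4, or without the filter on low values, 4 members were called: Pdk4, Depp1, Ddit4 and Trp53inp1. Foxo1, Foxo3 and Txnip were not called there. Over all genes those settings called 75, 120, 74 and 92, against 488. With a replicate block 6 were called, Foxo3 being lost (233 calls over all genes). With median-centred values (491 calls over all genes), and without CCR3 replicate 4, 8 were called, Irs2 among them. The latter setting called 1641 of all 13063 tested genes. Because this same contrast helped to choose the members, the counts describe the choice. Which members kept a call in a setting is likewise a description and no test of them. The median log2 difference was 0.69 over the members and -0.04 over all tested genes. In VEH skin the order of level ran from Txnip, Ddit4 and Sesn1 to Trp53inp1, Foxo4 and Foxo3, whose ranges overlapped, and on to Irs2, Foxo1, Pdk4 and Depp1, of which Foxo1 and Pdk4 overlapped. In CCR3 skin the mean of Trp53inp1 (25.5 FPKM) stood above that of Sesn1 and the mean of Pdk4 (15.2 FPKM) about level with that of Foxo3 (15.3 FPKM), with overlapping ranges in each pair.

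Most members were highest in the same CCR3 library. CCR3 replicate 4 was the highest of the 3 in all 8 members without overlap between groups, against 40.2% of all tested genes and 54.5% of the 178 genes called higher. With libraries brought to an equal sum or centred on their medians it was again the highest in 8 members, against 47.9% and 34.7% of tested genes. Replicate 4 stood 1.38 times as high as the mean of the other CCR3 libraries for Depp1, 1.35 times for Irs2 and 1.09 times for Trp53inp1. The trait was not particular to the members. The summed FPKM of the 14 glucocorticoid-responsive genes described below was also highest there, at 1582, 1704 and 1929 in CCR3 replicates 1, 2 and 4. Over all tested genes the same library lay nearest to VEH on the first principal component (3.45, against 11.23 and 22.97 for CCR3 replicates 1 and 2), which held 52.9% of the variance. On the second, with 18.6%, it stood apart at -17.39, with the other libraries between 0.39 and 7.86. It also had the lowest FPKM sum of the 6 (517764), the lowest sum of 6 keratinocyte markers (6102 FPKM) and the highest sum of 6 macrophage markers (1602 FPKM). VEH replicates 1 and 4 were close to it on both marker sums, at 6383 and 6296 FPKM for keratinocytes and 1594 and 1588 FPKM for macrophages. The part of these in the members' values was not tested. The VEH libraries had no such common order, with replicate 1 highest for 4 members and replicates 2 and 4 for 3 each. Without CCR3 replicate 4 the median log2 difference of the members was 0.59.

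**Figure D3:**
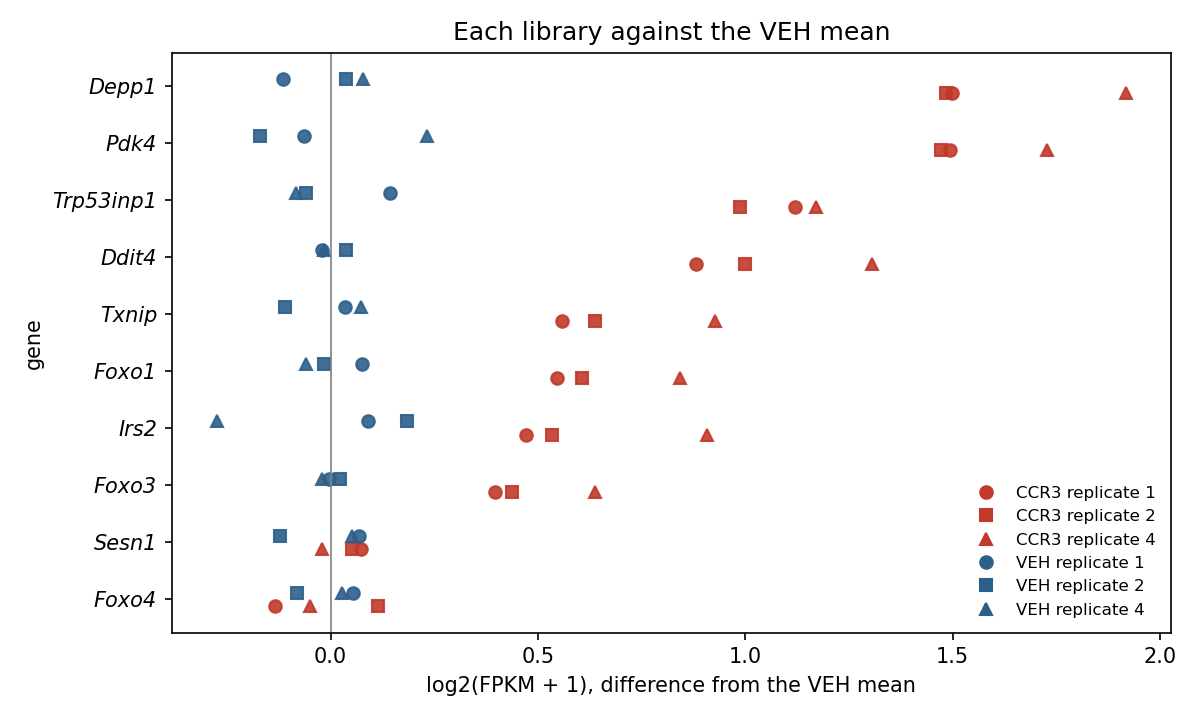
Difference of each library from the VEH mean on the log2(FPKM + 1) scale (horizontal axis) for the 10 genes, ordered by their mean difference. CCR3 replicate 4 (red triangles) lies farthest to the right for 8 genes, and the libraries of Sesn1 and Foxo4 mix around 0.

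Likeness between genes was measured as the root mean square difference, over the 6 libraries, of log2(FPKM + 1) relative to the VEH mean. Among members the closest pair was Foxo1 and Txnip (0.08), followed by Foxo4 and Sesn1 (0.09). Among 9605 other tested genes with a mean of at least 5 FPKM, the nearest to Foxo1 was Jade2 (0.020), which encodes a protein of histone acetyltransferase complexes, with 7.74, 8.06 and 9.86 FPKM in CCR3 and 5.41, 5.04 and 4.64 FPKM in VEH. Cblb, a ubiquitin ligase that restrains lymphocyte activation, and the Krüppel-like factor gene Klf13 followed (0.070 and 0.072). Nearest to Foxo3 were Bcl2l1, which guards against cell death, the elongation factor gene Aff1 and Hs3st3b1, a heparan sulfate sulfotransferase gene (0.051, 0.052 and 0.052). The nearest to Pdk4 was Klf15 (0.086), a Krüppel-like factor of fasting metabolism, at 12.07, 11.28 and 14.67 FPKM against 3.32, 2.63 and 4.07 FPKM, and the next, Angptl7 (0.244) and Tmem252 (0.288), were much farther away. These lists name genes with a like profile over 6 libraries and nothing more.

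The genes around the pathway were then tested, in 14 lists with 219 tested genes besides the members. By limma 16 were called higher (7.31%) and 3 lower (1.37%), set against 1.36% and 2.37% of all tested genes, and their median log2 fold change was -0.00. All 14 lists were chosen with earlier results of these data known, so these shares in part describe the choice. Of the 16, 8 came from the list of 14 glucocorticoid-responsive genes. Outside that list 8 of 205 genes were called higher (3.90%): Arrdc3, Mlxip, Foxo6, Fbxo32, Glul, Trim63, Deptor and Trib3. The total of 19 called genes fell to 11 without CCR3 replicate 1 and 11 with a replicate block (149 and 233 over all genes). It fell to 8, 11 and 9 without VEH replicates 1, 2 and 4 (75, 120 and 74 over all genes). Without CCR3 replicate 4 it was 28 of 219, where 1641 of all 13063 tested genes were called.

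**Figure D4:**
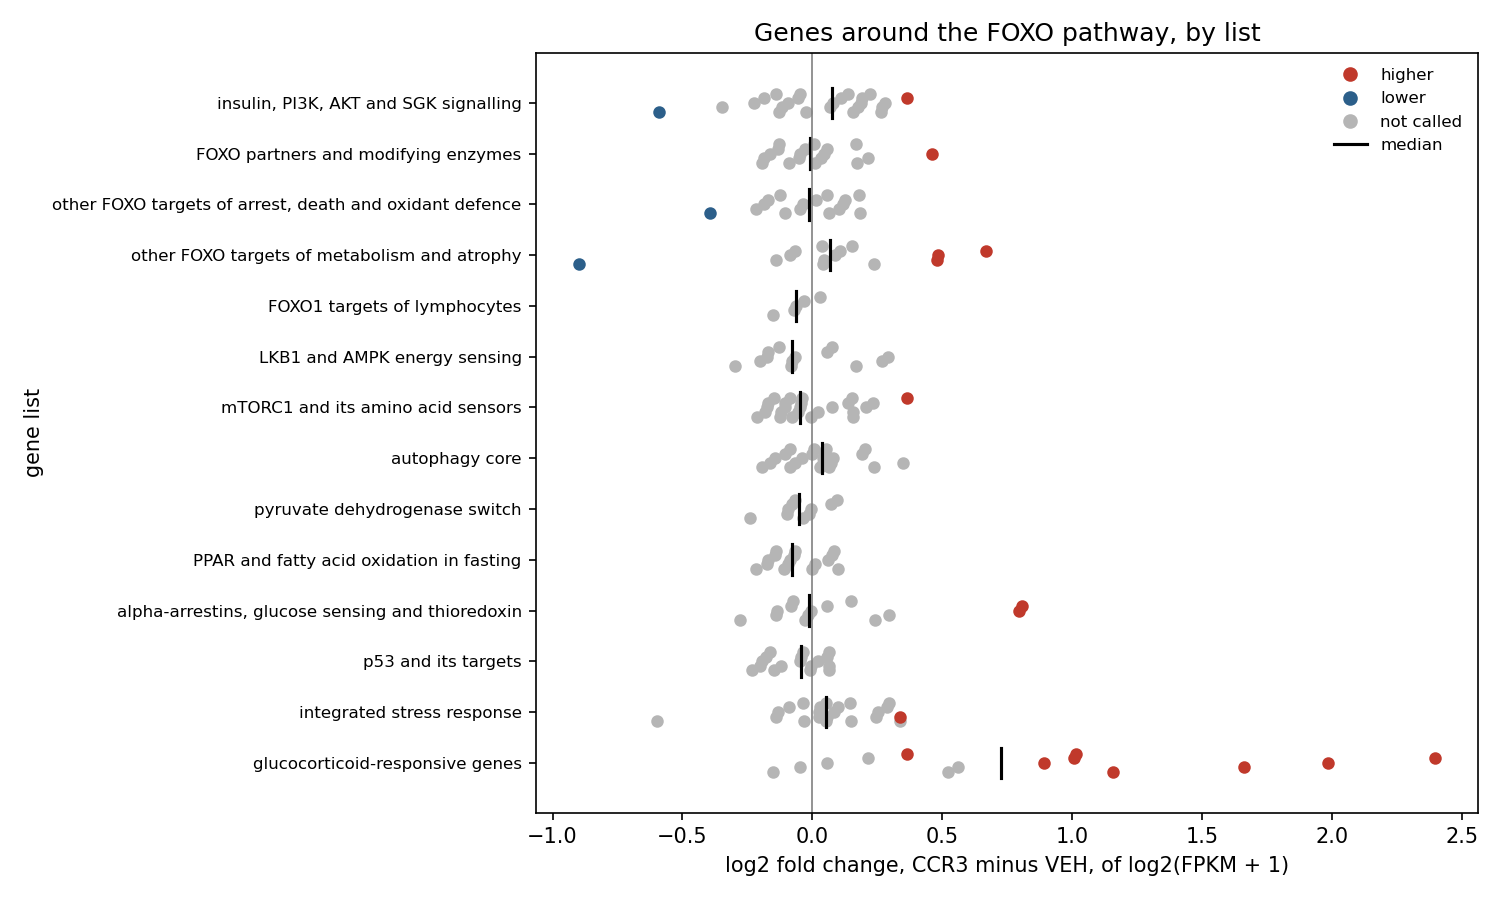
Log2 fold change of CCR3 against VEH (horizontal axis) for each tested gene of the 14 lists, 1 point a gene, coloured by the limma call, with the list median as a black bar; genes in several lists appear in each. Most points lie within 0.5 of 0, and the median of the glucocorticoid-responsive list (0.73) is the farthest from it.

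The alpha-arrestins and the glucose-sensing factors that act on Txnip held 2 calls, both of which were kept without each library in turn and under the other settings run. Arrdc3, an arrestin-like relative of Txnip that steers membrane receptors to breakdown, was at 40.13, 40.45 and 43.12 FPKM in CCR3 and at 25.15, 23.30 and 21.54 FPKM in VEH. It rose by 0.80 ± 0.073 (SE) on the log2 scale (limma adjusted p = 0.00286, at most 0.0287 in any alternative). Mlxip, also called MondoA, the glucose-sensing factor that drives Txnip transcription, was at 11.49, 10.99 and 13.65 FPKM against 6.91, 6.21 and 6.19 FPKM. It rose by 0.81 ± 0.092 (SE; limma adjusted p = 0.00688, at most 0.0448). Arrdc4, a paralogue of Txnip and another known Mlxip target, was at 68.26, 67.98 and 80.35 FPKM in CCR3 and at 76.41, 80.60 and 70.94 FPKM in VEH. Its groups overlapped and it was not called (log2 fold change -0.08 ± 0.086 SE, limma adjusted p = 0.627). In all, 2 of the 14 genes of this list were higher and 12 were not called.

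Other known FOXO targets did not share one direction. In the list of metabolism and atrophy 3 of 14 tested genes were higher and 1 was lower. Fbxo32 and Trim63, ubiquitin ligases of muscle wasting, rose from 2.67 ± 0.180 to 4.11 ± 0.261 FPKM and from 0.637 ± 0.091 to 1.63 ± 0.522 FPKM (SD, n = 3 each; limma adjusted p = 0.0211 and 0.0418). Trim63 was under 1 FPKM in each VEH library, so it passed the filter through CCR3 alone. Glul, the glutamine synthetase gene, rose from 151.9 ± 6.53 to 213.4 ± 24.9 FPKM (limma adjusted p = 0.0342). Lpl, the lipoprotein lipase gene, went the other way, from 58.0 ± 5.29 FPKM in VEH to 38.33, 25.31 and 29.47 FPKM in CCR3, a log2 fold change of -0.90 ± 0.141 (SE; limma adjusted p = 0.0177). Fbxo32, Trim63 and Glul lost the call without CCR3 replicate 1 and without each VEH library (limma adjusted p up to 0.0837, 0.151 and 0.137 in any alternative). Lpl lost it without VEH replicate 1 or VEH replicate 4 (up to 0.0953). Each of these genes also lost it without the filter on low values, and Fbxo32, Trim63 and Glul with a replicate block.

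Markers of other tissues were measured beside these genes. The summed FPKM of 10 skeletal muscle markers was 190.6 to 338.7 in CCR3 and 114.5 to 265.4 in VEH. Its highest value was in CCR3 replicate 2, where Trim63 (2.23 FPKM) and Fbxo32 (4.32 FPKM) were also highest. Its lowest was in VEH replicate 2, where both were lowest (0.54 and 2.47 FPKM). In CCR3 replicates 1 and 4 the sum (190.6 and 215.0) was below that of VEH replicates 1 and 4 (236.2 and 265.4). Trim63 was at 1.26 and 1.41 FPKM in those CCR3 libraries and at 0.65 and 0.72 FPKM in those VEH libraries. Fbxo32 was at 4.20 and 3.82 FPKM against 2.82 and 2.72 FPKM. All 10 muscle markers had a positive log2 fold change, with a median of 0.26, none was called by limma, none had an unadjusted p under 0.05, none separated the groups, and none was listed at 0 in all libraries. The sum of 8 adipocyte markers was 272.1 to 610.7 FPKM in CCR3 and 553.7 to 699.5 FPKM in VEH. All 8 had a negative log2 fold change, 7 with an unadjusted limma p under 0.05, and the median was -0.63, or -0.61 with libraries brought to an equal sum. By limma 2 of them, Pparg and Lep, were called lower, but none was at an equal sum, or without CCR3 replicate 2 or any 1 VEH library, and 5 were without CCR3 replicate 1. Lpl, which adipocytes also express, had the order of this sum among the CCR3 libraries, lowest in replicate 2 and highest in replicate 1, but not among the VEH libraries, where it was highest in replicate 1 and the sum in replicate 4. The part of muscle and fat in these results was not tested, and in bulk skin fewer cells of a type and less RNA per cell cannot be told apart. Among the members Pdk4, which muscle and fat express strongly, was highest of the CCR3 libraries in replicate 4, while the muscle sum was highest in replicate 2 and the adipocyte sum in replicate 1. Among the VEH libraries Pdk4 and both sums were highest in replicate 4, and Pdk4 and the muscle sum were lowest in replicate 2.

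In the list of growth arrest, cell death and oxidant defence, Tnfsf10, the gene of the death ligand TRAIL, was the 1 called among 16 and fell from 2.88 ± 0.195 to 1.95 ± 0.068 FPKM (limma adjusted p = 0.0358). The call was lost with libraries brought to an equal sum and without any 1 library other than CCR3 replicate 4 (limma adjusted p up to 0.134 in any alternative). It was also lost with a replicate block and without the filter on low values. Neither of the other sestrins was called. Sesn2 was at 14.8 against 15.2 FPKM (limma adjusted p = 0.803) and Sesn3 at 9.07 against 7.87 FPKM (limma adjusted p = 0.231). Of 5 FOXO1 targets in lymphocytes none was called by limma, and none had an unadjusted p under 0.05. Beside them, the sum of 6 T cell markers was 23.82 to 30.11 FPKM in CCR3 and 39.01 to 42.64 FPKM in VEH, and 3 of them, Cd3g, Cd28 and Cd4, were called lower by limma. None of the 6 was called without VEH replicate 1 or VEH replicate 4, 1 was without CCR3 replicate 1, CCR3 replicate 2 or VEH replicate 2, and 4 were without CCR3 replicate 4. That last setting called 1641 genes over all. The part of T cells in these results was not tested.

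Upstream of FOXO, 24 genes of insulin, PI3K, AKT and SGK signalling gave 1 called higher and 1 called lower. At an unadjusted limma p under 0.05, 5 were higher and 3 lower, with the called genes among them. Pik3r3, a regulatory subunit of PI3K, fell from 4.68, 4.07 and 4.35 FPKM in VEH to 2.70, 2.67 and 2.32 FPKM in CCR3 (log2 fold change -0.59 ± 0.083 SE, limma adjusted p = 0.0130). Sgk1, a kinase that like AKT phosphorylates FOXO factors and that glucocorticoids induce, rose from 58.0 ± 3.47 to 74.9 ± 4.14 FPKM (limma adjusted p = 0.0364). Pik3r3 lost the call without VEH replicate 1 or VEH replicate 4 (limma adjusted p up to 0.0765 in any alternative), and Sgk1 without any 1 library other than CCR3 replicate 4 (up to 0.149). Both lost it without the filter on low values, and Sgk1 also with a replicate block. Akt1 itself was at 102.5 against 111.0 FPKM and was not called (limma adjusted p = 0.351). Among 18 partners and modifying enzymes Foxo6 was the 1 called, and the deacetylase gene Sirt1 stood at 9.26 against 8.98 FPKM (limma adjusted p = 0.861).

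Among energy sensors and growth kinases Deptor was the 1 gene called. Of 13 genes of the AMPK pathway none was called by limma, with 3 higher and 4 lower at an unadjusted p under 0.05. Prkaa1, a catalytic subunit of AMPK, was at 14.2 against 12.5 FPKM (limma adjusted p = 0.160) and Prkag2, a regulatory subunit, at 9.64 against 12.1 FPKM (0.0806). Deptor, an inhibitor that binds the mTOR kinase, rose from 8.72 ± 0.291 to 11.5 ± 0.315 FPKM (limma adjusted p = 0.0238) and was the 1 called among 25 genes of mTORC1 and its amino acid sensors. It lost the call without CCR3 replicate 1 and without each VEH library (limma adjusted p up to 0.129 in any alternative). The same held with a replicate block and without the filter on low values. Mtor, the kinase, was at 6.45 against 5.34 FPKM without overlap and was not called (limma adjusted p = 0.0915). Of 22 autophagy genes none was called by limma, with 3 higher and 1 lower at an unadjusted p under 0.05. The least p was that of Ulk1, the kinase that starts autophagy, at 18.1 against 15.2 FPKM, which passed without CCR3 replicate 4 (limma adjusted p = 0.0372). That setting called 1641 genes over all.

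The partners of Pdk4 were not called. None of 10 other genes of the pyruvate dehydrogenase switch was called by limma, with 1 lower at an unadjusted p under 0.05. The paralogues Pdk1, Pdk2 and Pdk3 were at 16.0 against 14.8, 5.38 against 6.54 and 19.9 against 21.1 FPKM (limma adjusted p = 0.556, 0.168 and 0.459). Pdk4 was thus the lowest of the 4 kinases in every VEH library, and in CCR3 it was of the order of Pdk1. Of 16 tested genes of PPAR signalling and fatty acid oxidation, which fasting induces together with Pdk4 in liver and muscle, none was called by limma, and 1 was lower at an unadjusted p under 0.05. Slc25a20, the carrier that brings acylcarnitines into mitochondria, had the least p, at 21.9 against 25.7 FPKM (limma adjusted p = 0.154). Ppara, the receptor behind that response, lay under the filter at 0.567 against 0.487 FPKM.

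Routes that share single targets with FOXO were examined in the same way. Of 17 genes of p53 and its targets, beside Sesn1 and Trp53inp1, none was called by limma, and 3 were lower at an unadjusted p under 0.05. Trp53 was at 26.8 against 29.2 FPKM (limma adjusted p = 0.365), and Bax, the cell death gene with the least p, at 54.6 against 64.3 FPKM (limma adjusted p = 0.139, or 0.0430 without CCR3 replicate 4). In the integrated stress response, which also induces Ddit4, Trib3, a pseudokinase that binds AKT, rose from 11.2 ± 0.482 to 14.4 ± 0.690 FPKM (limma adjusted p = 0.0370) and the other 21 genes were not called. At an unadjusted limma p under 0.05, 6 genes of this list were higher, Trib3 among them, and 1 was lower. Trib3 lost the call without CCR3 replicate 1 and without each VEH library (limma adjusted p up to 0.160 in any alternative). It also lost it with a replicate block and without the filter on low values. Without CCR3 replicate 4, 5 genes of this list were called. In that setting, also given for Bax, 1641 of all 13063 tested genes were called. Atf4, its main transcription factor, was at 138.6 against 141.5 FPKM (limma adjusted p = 0.820).

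Because the lists were chosen with earlier results of these data known, their order in part describes that choice. Of the 14 lists, glucocorticoid-responsive genes had the most calls, with 8 of 14 called higher and a median log2 fold change of 0.73, and 6 to 8 were called with 1 library left out. They were led by Zbtb16, Fkbp5, Klf15 and Tsc22d3, all of which kept the call without each library in turn. Zbtb16 was under 1 FPKM in each VEH library, at 0.91, 0.81 and 0.77 FPKM, so it passed the filter through CCR3 alone. Tsc22d3, the anti-inflammatory protein GILZ, rose from 90.8 ± 10.9 to 203.2 ± 14.7 FPKM (limma adjusted p = 0.00248). The receptor gene Nr3c1 was at 20.9 against 21.7 FPKM and was not called (limma adjusted p = 0.655).

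**Figure D5:**
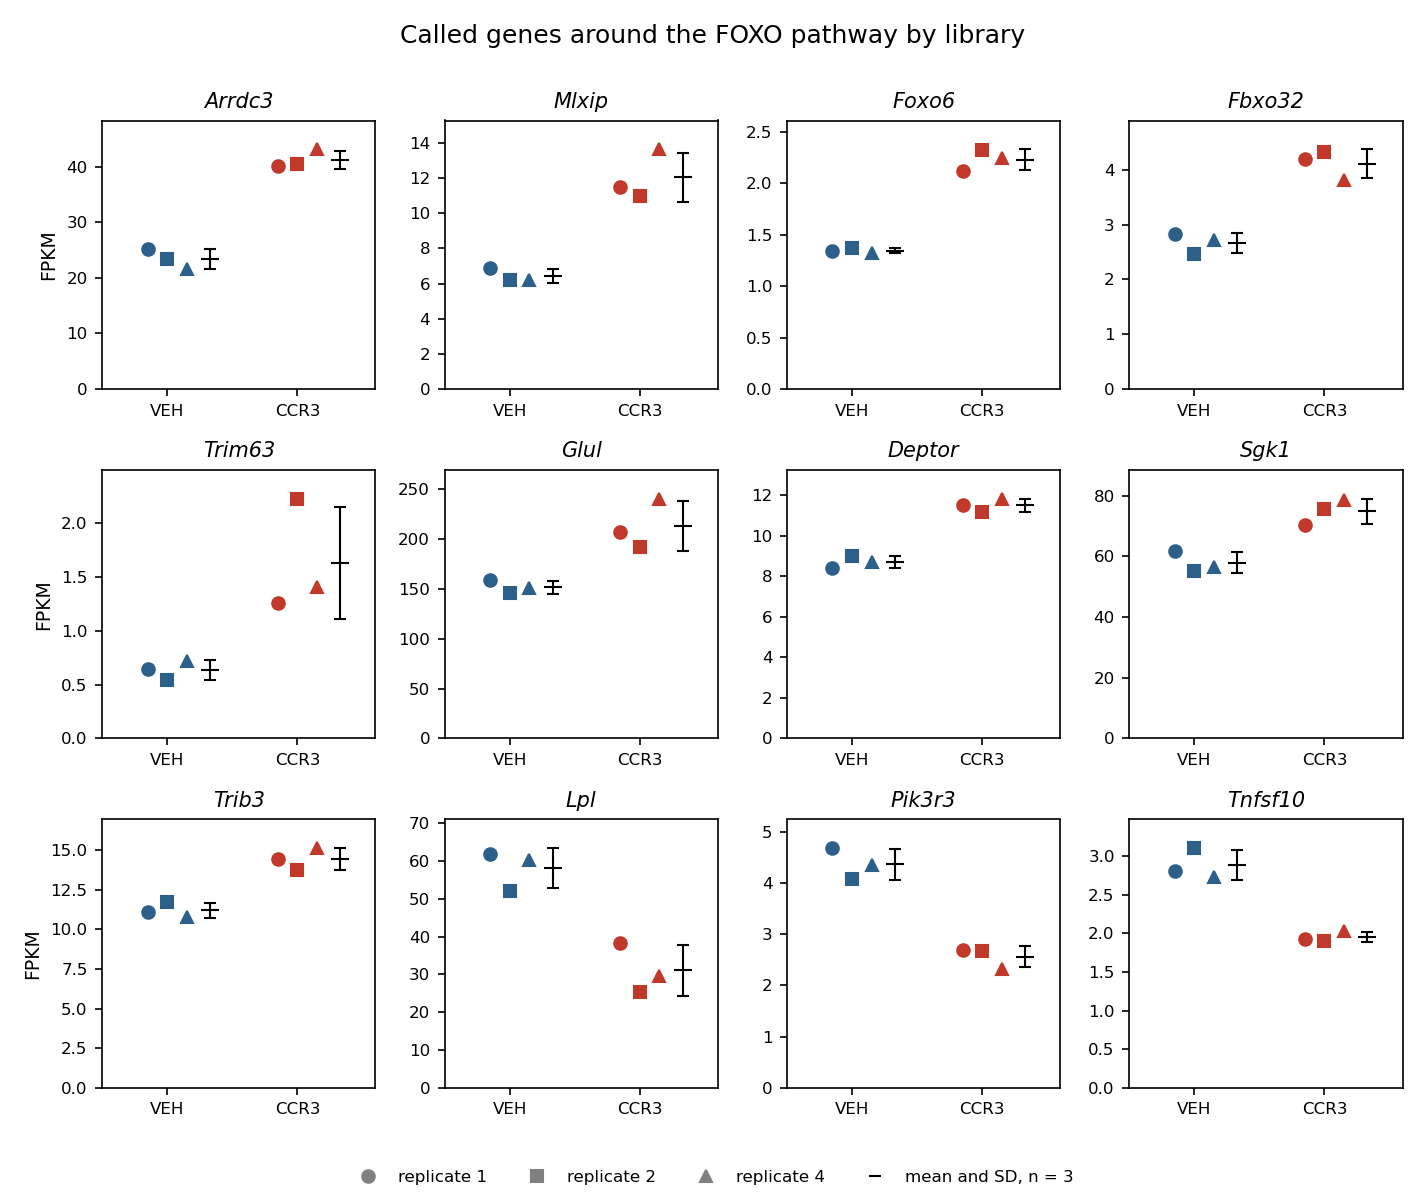
FPKM (vertical axis, each panel from 0) of 12 called genes around the pathway in the VEH (blue) and CCR3 (red) libraries, with marker shapes for the replicate and black marks for the mean and SD of 3 libraries. The groups do not overlap in any of the 12 panels, and Lpl, Pik3r3 and Tnfsf10 are the ones lower in CCR3.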

How the data were processed

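Skin RNA of 6 mouse libraries was purified on oligo(dT) beads and read as single-end reads, per the labels' protocols, and HISAT is named as the aligner per the submitters' processing notes. No source used here gives a version, build, annotation, counter or strand setting. The authors deposited FPKM values for 18824 genes, rounded to 2 decimals. No step of 1 read could be found: at best 21.5% of 1600 ratios of values from 0.05 to 0.4 FPKM between a pair of libraries lay within 0.05 of a whole number. Depth is therefore unknown. FPKM is relative, so a rise of abundant transcripts lowers all others, and short reads may be split between close paralogues.

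Libraries were grouped by title. The differences were fitted with limma 3.58.1 (R 4.3.3) on log2(FPKM + 1), with a trend of the variance on the mean, 2-sided p-values and a Benjamini-Hochberg threshold of 0.05 over the 13063 genes with at least 1 FPKM in 3 libraries. The scale understates changes of low genes. In 25 rows the symbol had become a date and was restored from the Entrez number through RefSeq. The fit was tested on simulated data. Members, lists and named genes were chosen with earlier results of these data known. Named are the members, up to 4 called genes of each list or else the one with the least p, 17 key regulators, and the 3 genes most like Foxo1, Foxo3 and Pdk4. A gene this rule would name is not reported here. Promoters came from RefSeq GRCm38.p6 and were searched with Python 3.11.15. No protein sequences were used here. Alternatives were 2 scalings, 2 filters, a pseudocount of 0.1, a replicate block, a robust trend and each library left out in turn.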

Additional observations from a re-analysis of the deposited data

How the results depend on the processing

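The median log2 difference of the members (0.69) stayed between 0.59 and 0.75 in all 13 alternatives, and 128 of 130 values of single members moved by less than the spread between replicates. The exceptions were Pdk4 and Depp1 with a pseudocount of 0.1 (1.74 and 1.90). Most of that count was fixed in advance and is no measure of stability. The filters, the replicate block and the robust trend leave a difference as it is. Leaving out 1 of 3 libraries cannot move it by more than that spread. Between 4 and 8 members were called, against 7: without any 1 VEH library or without the filter, Foxo1, Foxo3 and Txnip were not. These counts describe members chosen on this contrast, and calls over all genes fell in the same settings. Counts of called genes depended more on the setting. Over all genes 488 were called, 92 without a filter on low values, and between 74 and 1641 with 1 library left out. Of the genes around the pathway 19 were called, 9 without a filter, and between 8 and 28 with 1 library left out. Of 205 values of the called genes named, 149 stayed past the threshold and 56 did not, and none changed sign. The labels do not say whether equal replicate numbers pair the libraries, and so few libraries cannot exclude it. Deviations from the group means correlated across genes at -0.06, 0.08 and -0.03 for the libraries numbered 1, 2 and 4. The libraries numbered 2 were closest to each other, and those numbered 1 and 4 were closest to another number. With a replicate block 233 genes were called over all genes and 11 around the pathway. The cause of these shifts was not tested. Without counts, no limit from depth could be set.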
